A study of Mus musculus with 17 samples.

Results

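Genes of the choroid plexus and the ependyma were followed in bulk RNA-seq libraries of murine rhabdoid tumors. These tumors lack SMARCB1, part of the SWI/SNF complex that moves nucleosomes, and their human counterparts arise in infants and small children. 9 genes were taken by name out of 50600 genes listed in the count tables. Ttr, Folr1, Kl, Clic6, Aqp1, Kcne2, Enpp2 and Prlr stand for the choroid plexus epithelium, and Foxj1 for the ependyma and other cells with motile cilia. All 9 were found by Ensembl ID and all 9 passed the filter on low counts, which left 21494 genes for testing. The filter asks for reads in only as many libraries as the smallest group holds, so a gene passes through the group in which it is high, and passing it says nothing about the others.

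The libraries came from 14 separate tumors and 3 brains of the mouse strain C57BL/6J. The tumor groups were SHH CNS tumor (central nervous system tumors of the SHH subtype, n = 3), Myc CNS tumor (n = 4), Extracranial tumor (n = 4) and Syngeneic graft (tumor tissue grown in the flank of a genetically matched mouse, n = 3), all with the genotype SMARCB1 -/-. They were set against Healthy brain (WT, n = 3). The labels used here do not give age, sex, treatment, the deleting allele and its Cre driver, the brain region sampled, or the tumor from which a graft was made. The comparisons ask how far tumors of each subtype and site carried transcripts of the choroid plexus and ependyma, set against brain and against each other.

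The choroid plexus is a tuft of epithelium and vessels in the brain ventricles that secretes cerebrospinal fluid and moves hormones, vitamins and ions between blood and fluid. Its epithelium derives from the dorsal midline of the neural tube under factors such as Otx2 and Lmx1a. The ependyma lines the ventricles, and its beating cilia are built under Gmnc, Mcidas, Foxj1 and the RFX factors. In bulk RNA, fewer cells of a type and less RNA per cell cannot be told apart.

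Library totals ran between 18685672 and 130835711 counts, lowest in Myc CNS tumor 1 and highest in Healthy brain 3. Levels are given as counts per 1000000 counts of the TMM-scaled library (CPM), and levels of different genes are compared only as CPM per kilobase of exon. Smarcb1 was at 2.52 to 33.2 CPM in the 14 tumors, against 119 to 132 CPM in the healthy brains, and was called lower in each of the 4 tumor groups (edgeR adjusted p 0.000532 to 0.0277). Which exons were deleted was not stated, and the source of the Smarcb1 reads in tumors was not tested. The neuron markers were present in all 3 healthy brains, with a summed level of the 9 genes of 4143 to 4581 CPM and none at 0.

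Several libraries stood apart in ways that touch the genes described here. SHH CNS tumor 1 had a summed level of 10 oligodendrocyte genes of 10050 CPM, against 88.2 and 219 CPM in SHH CNS tumors 2 and 3 and 99.3 to 127 CPM in the healthy brains, and its Smarcb1 level of 33.2 CPM was the highest of the tumors. Its 8 astrocyte genes summed to 4262 CPM, against 759.5 and 819 CPM in SHH CNS tumors 2 and 3 and 840.4 to 1031 CPM in the healthy brains. Its 9 neuron genes summed to 3826 CPM, against 2002 and 463 CPM in SHH CNS tumors 2 and 3. Healthy brain 1 held pituitary and muscle transcripts, with Gh at 1215 CPM and 8 muscle genes summing to 335 CPM, against 7.52 and 8.35 CPM in Healthy brains 2 and 3. Myc CNS tumor 1 had 8 pituitary genes at a sum of 193 CPM. For part of the fold changes and calls that rest on SHH CNS tumor 1 or Healthy brain 1, values without them are therefore also given. For others a range with single libraries left out is given. Correlations are given over all libraries only.

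Transthyretin, encoded by Ttr, carries thyroid hormone and retinol-binding protein in cerebrospinal fluid and is the most abundant product of the choroid plexus epithelium. Ttr was at 1679, 1.2 and 0.804 CPM in SHH CNS tumors 1, 2 and 3. It was at 0.601, 0, 0.148 and 0.0747 CPM in Myc CNS tumors 1 to 4, at 0 in all 4 extracranial tumors and at 0.0281, 0.0184 and 0.0731 CPM in the 3 grafts. Healthy brains 1, 2 and 3 had 709, 348 and 0.939 CPM of Ttr. A single SHH tumor and 2 of the brains thus held nearly all Ttr reads of the series, while Healthy brain 3 lay among the tumors, 756-fold below the highest brain.

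Folr1 encodes folate receptor alpha, which carries folate into the cerebrospinal fluid. It was at 14.1, 0.117 and 0.317 CPM in SHH CNS tumors 1, 2 and 3 and at 0.0262 to 0.273 CPM in the Myc tumors. The extracranial tumors had 0, 0, 0.269 and 0.136 CPM and the grafts 0.0369 to 0.197 CPM, against 8.84, 4.17 and 1.17 CPM in Healthy brains 1, 2 and 3. As for Ttr, SHH CNS tumor 1 was the highest library and Healthy brain 3 the lowest of the brains. Folr1 (chr7:101858331-101870788, minus strand, GRCm38) overlaps Anapc15 on the opposite strand, so its few reads in tumors are uncertain unless reads were counted by strand, which the sources used here do not state.

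Kl encodes klotho, a co-receptor for the hormone FGF23 that is made in choroid plexus and kidney. Kl was at 46.6, 2.07 and 1.63 CPM in SHH CNS tumors 1, 2 and 3, at 0.601, 0, 0.0175 and 0.254 CPM in the Myc tumors and at 0.0976, 0.0973, 1.01 and 0.0340 CPM in the extracranial tumors. All 3 grafts had no Kl reads, against 1.44, 2.57 and 2.08 CPM in the healthy brains. Unlike Ttr, Kl was even among the brains, which lay within 1.79-fold of each other. In SHH CNS tumor 1 it was 32.4 times as high as in Healthy brain 1, while Ttr was 2.37 times, Clic6 1.77 times and Folr1 1.60 times as high. The ratio of Ttr to Kl reads was therefore 36.0 in SHH CNS tumor 1, against 493 in Healthy brain 1 and 135 in Healthy brain 2.

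The region around the Kl start site (chr5:150952357-150952656, plus strand, RefSeq, GRCm38.p6) is shown because Kl had the highest ratio of that tumor to Healthy brain 1 of the 9 members. It runs from 250 bases before to 50 bases after the start and held none of the 3 motifs searched, so no letters are in capitals.
Kl: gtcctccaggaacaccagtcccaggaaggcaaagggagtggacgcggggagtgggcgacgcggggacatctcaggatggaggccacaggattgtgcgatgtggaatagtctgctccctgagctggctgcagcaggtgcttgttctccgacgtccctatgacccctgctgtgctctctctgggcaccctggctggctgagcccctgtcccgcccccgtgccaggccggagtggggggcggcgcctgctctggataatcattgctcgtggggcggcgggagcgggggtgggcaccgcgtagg

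Clic6 belongs to the chloride intracellular channel family, and Kcne2 encodes a small accessory subunit of potassium channels. Clic6 was at 35.7, 1.10 and 0.894 CPM in SHH CNS tumors 1, 2 and 3, at 0.637 to 1.25 CPM in the Myc tumors, at 0.0976 to 2.79 CPM in the extracranial tumors and at 0, 0.534 and 0.136 CPM in the grafts, against 20.1, 12.7 and 1.77 CPM in Healthy brains 1, 2 and 3. Kcne2 was at 4.53, 0.588 and 0.0906 CPM in the SHH tumors, at 0.109 to 0.417 CPM in the Myc tumors, at 0.146 to 1.46 CPM in the extracranial tumors and at 0.0418 to 0.0921 CPM in the grafts, against 5.29, 5.56 and 0.907 CPM in the healthy brains. Both genes shared the split of the brains seen for Ttr and Folr1. The ratio of Clic6 to Folr1 reads was 2.52 in SHH CNS tumor 1 and 2.28, 3.03 and 1.52 in the 3 brains, a much narrower range than that of Ttr to Folr1, which was 119 in SHH CNS tumor 1 and 80.2, 83.3 and 0.803 in Healthy brains 1, 2 and 3.

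**Figure D1:**
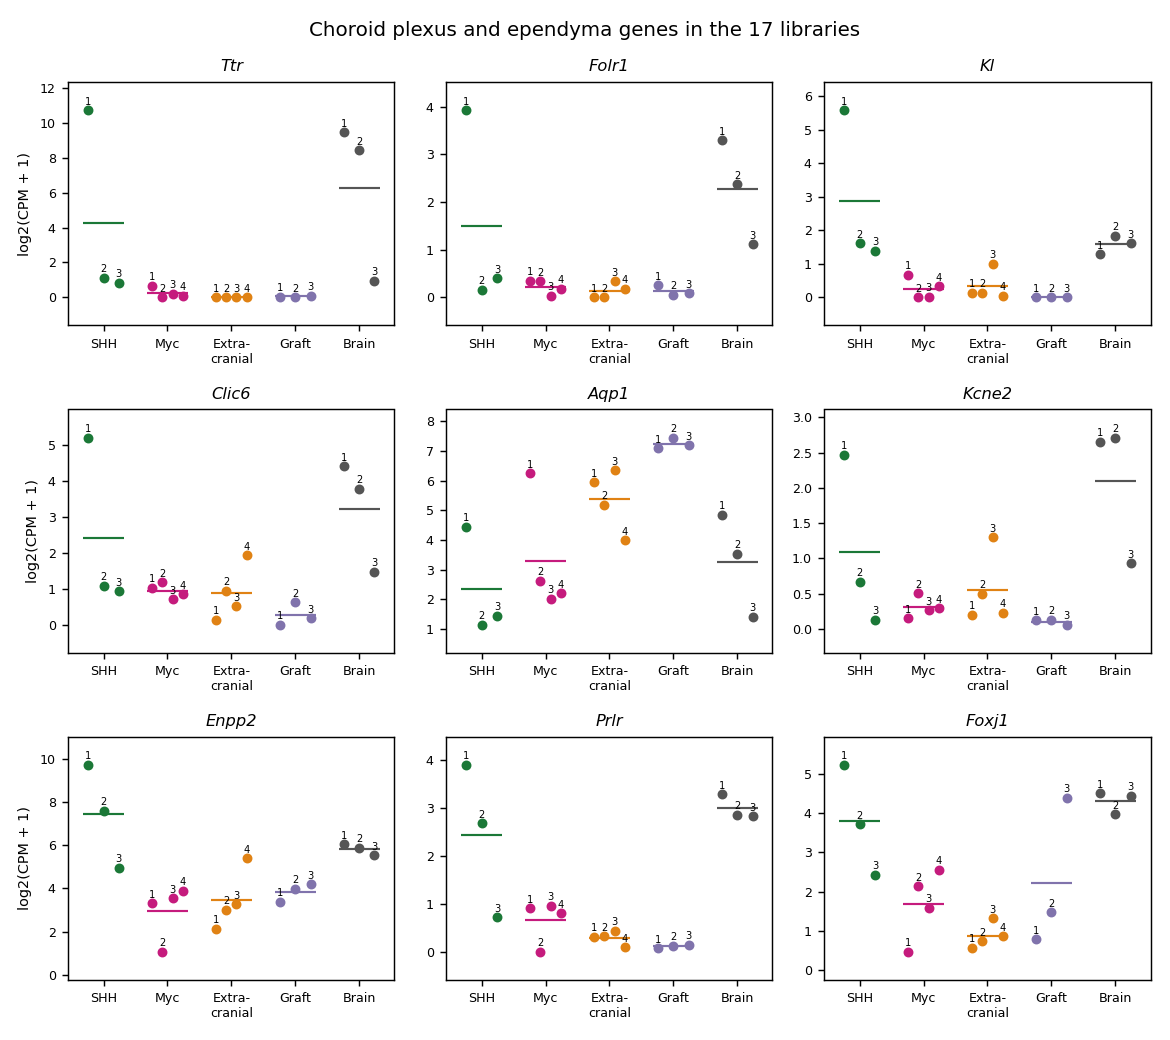
Level of each of the 9 genes in each library, as log2(CPM + 1), with the library number above each point and a line at the group mean. SHH CNS tumor 1 lies above the other SHH tumors for all 9 genes, Healthy brain 3 lies far below the other brains for Ttr, Folr1, Clic6, Aqp1 and Kcne2, and the Aqp1 values of the 3 grafts lie above those of every other library.

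Aqp1 encodes the water channel of the apical choroid plexus membrane, and is also made by red blood cells, kidney tubule and the endothelium of many vessels outside the brain. It departed from the other members. Aqp1 was at 20.8, 1.22 and 1.74 CPM in SHH CNS tumors 1, 2 and 3, at 75.3, 5.16, 3.05 and 3.65 CPM in Myc CNS tumors 1 to 4 and at 61.0, 35.5, 80.6 and 15.0 CPM in the extracranial tumors. The grafts had 136, 174 and 145 CPM, against 27.9, 10.6 and 1.67 CPM in Healthy brains 1, 2 and 3. The 3 grafts were the highest of the 17 libraries, and the extracranial tumors overlapped the brains only through Extracranial tumor 4. Per kilobase, Aqp1 was the highest of the 9 genes in the grafts, at a mean of 57.7 CPM per kilobase, followed by Foxj1 at 2.85 and Enpp2 at 2.39. The place of Foxj1 rests on Syngeneic graft 3, at 7.60 CPM per kilobase, since Foxj1 was at 0.279 and 0.675 in Syngeneic grafts 1 and 2, below Enpp2 at 1.63 and 2.56.

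Markers of other cells that make Aqp1 moved with it in part. The summed level of 10 endothelium genes was 507 to 577 CPM in the grafts, 129 to 427 CPM in the extracranial tumors, 230 to 397 CPM in the Myc tumors and 107 to 218 CPM in the SHH tumors, against 248 to 306 CPM in the healthy brains, with none at 0 in any library. Across the 17 libraries, which share depth and group structure, Pearson's r between Aqp1 and the mean endothelium level was 0.602, given as a description. The 8 kidney tubule genes summed to 0.166 to 0.251 CPM in the grafts, with 5 to 7 of the 8 at 0, and the 7 erythroid genes summed to 36.9 to 153 CPM in the grafts, against 192 to 750 CPM in the healthy brains. The part of endothelium in the Aqp1 level was not tested.

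**Figure D2:**
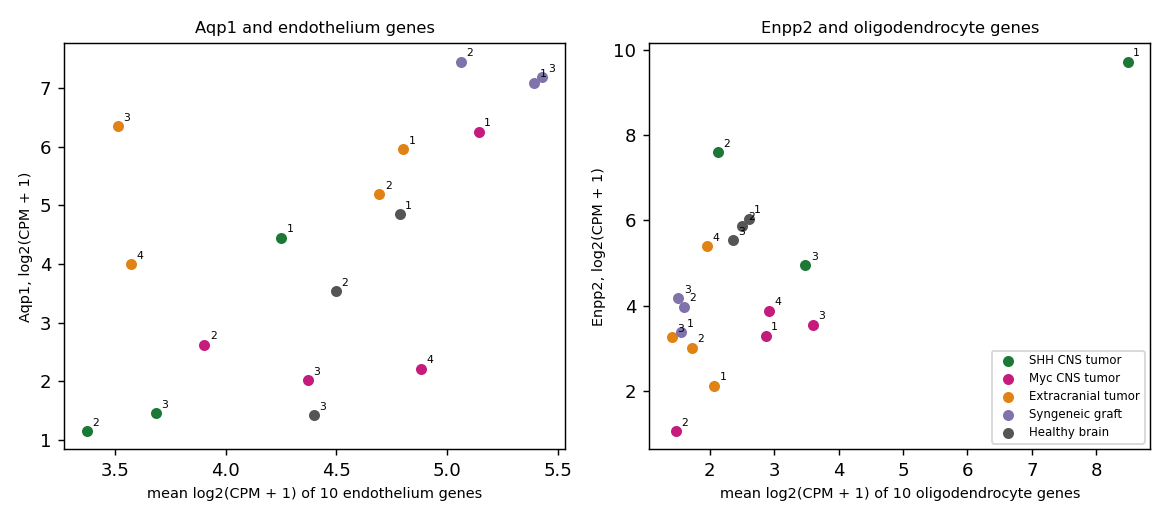
Left, Aqp1 against the mean of 10 endothelium genes, and right, Enpp2 against the mean of 10 oligodendrocyte genes, each as log2(CPM + 1) with 1 numbered point per library. The 3 grafts lie at the upper right on the left, where Extracranial tumor 3 has high Aqp1 at a low endothelium level, and SHH CNS tumor 1 stands alone at the upper right on the right.

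The start regions of Aqp1 (chr6:55336049-55336348, plus strand) and Kcne2 (chr16:92292139-92292438, plus strand), both from RefSeq on GRCm38.p6, are shown because Aqp1 was the 1 member that was high in the grafts and Kcne2 was among those that were low there, while both windows held the same motif. RefSeq gives Kcne2 a second start region (chr16:92295366-92295665, plus strand), which held none of the 3 motifs and is not shown. Each window runs from 250 bases before to 50 bases after a start site, and capitals mark GTTGCC or its reverse complement GGCAAC, an arm of the X-box that RFX factors bind. Counted from the start site, the motif begins at position -111 in Aqp1 and at -109 in Kcne2.
Aqp1: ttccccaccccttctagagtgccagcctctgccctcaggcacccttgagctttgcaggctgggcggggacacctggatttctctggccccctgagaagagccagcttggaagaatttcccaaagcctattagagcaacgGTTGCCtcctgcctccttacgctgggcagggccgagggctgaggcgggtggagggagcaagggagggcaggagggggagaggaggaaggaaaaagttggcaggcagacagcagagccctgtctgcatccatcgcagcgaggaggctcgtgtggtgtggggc
Kcne2: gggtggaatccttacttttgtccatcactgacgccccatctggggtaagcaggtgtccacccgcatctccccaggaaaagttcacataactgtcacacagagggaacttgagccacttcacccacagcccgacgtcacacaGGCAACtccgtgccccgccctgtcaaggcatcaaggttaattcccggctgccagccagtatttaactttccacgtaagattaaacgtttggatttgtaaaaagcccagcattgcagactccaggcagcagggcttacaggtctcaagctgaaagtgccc

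The search read both strands of the start regions of 4 members, Kl, Aqp1, Kcne2 and Prlr. The OTX2 motif was TAATCC, which 7.06% of 32851 start regions of the same length hold. The forkhead motif was TGTTTAC, held by 3.65% of them, and the X-box arm is held by 12.5%. The forkhead motif was found in 1 of 3 start regions of Prlr, at position -215, and the OTX2 motif in none of the members' windows. A match of letters is a description and not a binding site.

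Enpp2 encodes autotaxin, a secreted enzyme that makes lysophosphatidic acid, and is made by choroid plexus, oligodendrocytes and meninges. It was at 839, 192 and 29.8 CPM in SHH CNS tumors 1, 2 and 3, at 8.86, 1.10, 10.7 and 13.8 CPM in the Myc tumors and at 3.37, 7.10, 8.59 and 41.2 CPM in the extracranial tumors. The grafts had 9.42, 14.8 and 17.2 CPM, against 64.8, 57.6 and 45.3 CPM in the healthy brains. The brains were within 1.43-fold of each other and lay above every Myc, extracranial and graft library, while 2 of the 3 SHH tumors lay above the brains. SHH CNS tumor 1 had 839 CPM of Enpp2 with 10050 CPM of the oligodendrocyte genes. SHH CNS tumor 2 had 192 CPM of Enpp2 with 88.2 CPM of them, and SHH CNS tumor 3 had less Enpp2, 29.8 CPM, with more of them, 219 CPM. Across the 17 libraries r between Enpp2 and the oligodendrocyte mean was 0.674. It was higher with the neuron mean, at 0.799, and the astrocyte mean, at 0.785. With the meninges and fibroblast mean it was -0.688. The part of any of these cells in the Enpp2 level was not tested.

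Prlr encodes the prolactin receptor, which is abundant on choroid plexus epithelium. It was at 14.0, 5.43 and 0.645 CPM in SHH CNS tumors 1, 2 and 3, at 0.875, 0, 0.943 and 0.747 CPM in the Myc tumors, at 0.0680 to 0.358 CPM in the extracranial tumors and at 0.0563 to 0.104 CPM in the grafts, against 8.78, 6.29 and 6.16 CPM in the healthy brains. The brains lay within 1.43-fold of each other, with Healthy brain 3 close to the others, in contrast to Ttr. Prlr (chr15:10177238-10349180, plus strand, GRCm38) overlaps Gm21973 on the same strand, Clic6 overlaps 2410124H12Rik on the same strand and Enpp2 overlaps Gm26684 on the opposite strand, so shared reads cannot be assigned with certainty. The remaining 5 members overlap no other annotated gene.

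Foxj1 encodes the forkhead factor that switches on the genes of motile cilia. It was at 36.6, 12.1 and 4.38 CPM in SHH CNS tumors 1, 2 and 3, at 0.383, 3.39, 2.02 and 4.90 CPM in the Myc tumors and at 0.488, 0.662, 1.49 and 0.816 CPM in the extracranial tumors. The grafts had 0.731, 1.77 and 19.9 CPM, against 21.7, 14.7 and 20.7 CPM in the healthy brains. Syngeneic graft 3 alone among the Myc, extracranial and graft libraries reached the level of the brains. The other ependyma and motile cilium genes were not high in that graft: their mean log2(CPM + 1) was between 0.89 and 0.93 in the 3 grafts, against 2.38 to 2.55 in the healthy brains.

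Taken by library, all 9 members were over 2 times higher in SHH CNS tumor 1 than in both other SHH tumors, as were 11.8% of the 21494 genes tested, 13 of 30 other choroid plexus genes and 17 of 41 other ependyma genes. For 7 of 9 members it was the highest of the 17 libraries, which held for 8.01% of all genes tested. The summed oligodendrocyte, astrocyte and neuron genes were also highest there among the SHH tumors, and their part in the members' levels was not tested. In the brains, 5 of the 8 choroid plexus members were over 2 times lower in Healthy brain 3 than in both other brains, as were 12 of 30 other choroid plexus genes, 1 of 41 ependyma genes and 2.21% of all genes. Otx2, the homeobox factor of the choroid plexus, ran against this order: it was at 9.85, 31.4 and 60.3 CPM in Healthy brains 1, 2 and 3, highest where Ttr was lowest, and at 94.5, 92.0 and 199 CPM in SHH CNS tumors 1, 2 and 3.

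Against healthy brain, no member was called higher or lower in the SHH tumors. The edgeR quasi-likelihood test with Benjamini-Hochberg adjustment over all genes called 0 of 9 at an adjusted p under 0.05, against 4.37% of all genes tested, and 1 of 9 had an unadjusted p under that limit. Enpp2 averaged 354 ± 428 CPM in the SHH tumors and 55.9 ± 9.86 CPM in the brains (SD, n = 3 each), a log2 fold change of 2.66 ± 1.09 (SE) with an edgeR adjusted p of 0.174. Kl averaged 16.8 ± 25.8 CPM in the SHH tumors and 2.03 ± 0.569 CPM in the brains (SD, n = 3 each), with a log2 fold change of 3.05 ± 1.59 and an edgeR adjusted p of 0.289. DESeq2 also called 0 members, against 2875 of the 21494 genes tested. Limma voom with quality weights called 2 members, Enpp2 higher and Folr1 lower, against 7559 of the 21494. The share of members called by limma voom was thus not above that of all genes.

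Both groups of that comparison were wide: Ttr was 1401 times as high in SHH CNS tumor 1 as in the next SHH tumor, and 756 times as high in Healthy brain 1 as in Healthy brain 3. Without SHH CNS tumor 1 the log2 fold change of Ttr was -8.47, against 0.67 with it, that of Folr1 -4.40, against 0.04, and that of Clic6 -3.53, against 0.12. That of Kl was -0.14 without SHH CNS tumor 1, against 3.05 with it. That of Enpp2 ranged from 0.99 to 3.2 with single libraries left out, against 2.66 with all. No member was called whichever single library of these groups was left out. The 2 remaining SHH tumors lay close to Healthy brain 3 and far below Healthy brains 1 and 2 for Ttr.

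In the Myc tumors 7 of 9 members fell relative to healthy brain, against 26.8% of all genes tested that were called lower (edgeR quasi-likelihood test). They were Ttr (log2 fold change -10.94 ± 2.90), Folr1 (-4.89 ± 1.57), Clic6 (-3.64 ± 1.40), Kcne2 (-4.05 ± 1.13), Enpp2 (-2.69 ± 0.99), Prlr (-3.44 ± 0.98) and Foxj1 (-2.83 ± 1.01), with edgeR adjusted p-values of 0.00849 to 0.0407. Kl had a log2 fold change of -3.30 ± 1.5 at an edgeR adjusted p of 0.0824, although its libraries did not overlap, and was called lower with limma voom (-4.02, adjusted p 0.00275) and with the compared groups only (-3.23, 0.0495). Aqp1 had one of 0.70 ± 1.23 at 0.652. The median over the 9 members was -3.44, against -0.01 over all genes tested. Of the markers of other brain cells, 4 of 9 neuron genes were called lower, with a median of -3.80. So were 2 of 8 astrocyte genes, with a median of -1.90, which is not above the 26.8% of all genes. The oligodendrocyte genes did not move this way: 0 of 10 were called lower and 1 higher, with a median of 0.62. The neuron genes summed to 98.0 to 561 CPM in the Myc tumors, with at most 1 at 0, against 4143 to 4581 CPM in the brains, and the astrocyte genes to 41.1 to 1037 CPM, against 840.4 to 1031 CPM. Across the 17 libraries r with the mean neuron level was 0.740 to 0.959 for every member but Aqp1, for which it was -0.498, and the part of these cells in the members' levels was not tested. Ttr, Kcne2 and Prlr were called whichever single library was left out, and they were the 3 members called without Healthy brain 1. Without Myc CNS tumor 1, 2 or 3 there were 4 calls, since Clic6, Enpp2 and Foxj1 missed the threshold. Clic6 was also lost without Myc CNS tumor 4, Clic6 and Enpp2 without Healthy brain 2, and Enpp2 and Foxj1 without Healthy brain 3. Clic6 and Enpp2 were lost with no filter, Clic6 and Ttr (edgeR adjusted p 0.0541) with the replicate block. With limma voom Clic6 and Ttr were lost, and Clic6 and Foxj1 with Healthy brain 1 and SHH CNS tumor 1 left out together.

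In the extracranial tumors 6 of 9 members fell relative to healthy brain, against 26.1% of all genes tested that were called lower. Ttr had no reads in any of the 4 tumors, which at a floor of 3 counts over the group is at least 15850-fold lower than the brain mean. Prlr averaged 0.231 ± 0.120 CPM in the extracranial tumors (n = 4) and 7.08 ± 1.48 CPM in the brains (SD, n = 3), a log2 fold change of -4.92 ± 1.05 with an edgeR adjusted p of 0.00155. Foxj1 (-4.45 ± 1.08), Folr1 (-5.51 ± 1.61), Clic6 (-3.44 ± 1.38) and Kcne2 (-2.82 ± 1.07) were also called lower by edgeR, with the adjusted p of Clic6 at 0.0493. Enpp2 (-1.89 ± 0.97), Kl (-2.68 ± 1.44) and Aqp1 (1.84 ± 1.29) were not called in this fit. With limma voom Aqp1 was called higher (3.49, adjusted p 0.00353) and Kl lower (-4.07, 0.00587), and with the replicate block in edgeR Aqp1 was called higher (2.90, adjusted p 0.0346) and Enpp2 lower (-2.86, 0.0318). Clic6 and Kcne2 both lost their calls with the replicate block, with limma voom and with the compared groups only. Clic6 also lost its call with no filter, and with Healthy brain 1 and SHH CNS tumor 1 left out together. Ttr lost its call with limma voom (adjusted p 0.233). Ttr, Folr1, Prlr and Foxj1 were called whichever library was left out, while the calls of Clic6 and Kcne2 were lost without Extracranial tumor 1 or 2 or Healthy brain 1 or 2, that of Clic6 also without Extracranial tumor 3 and that of Kcne2 also without Extracranial tumor 4. Without Extracranial tumor 3, Kl was called lower as well (-4.69), and without Extracranial tumor 4 so was Enpp2 (-3.15).

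**Figure D3:**
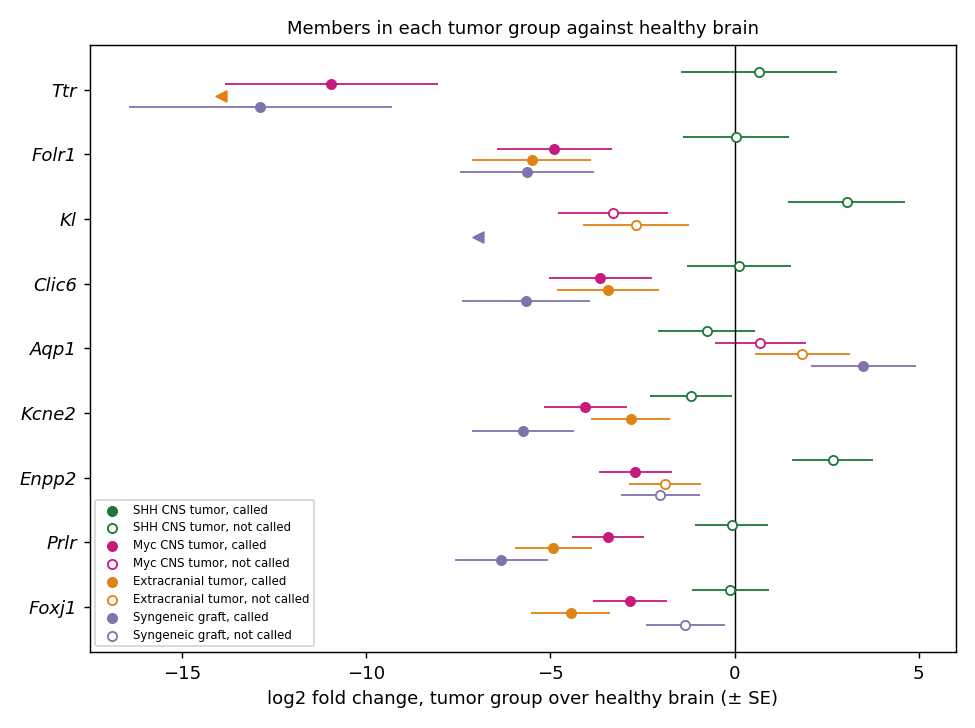
Log2 fold change of each member in each tumor group over healthy brain from the edgeR fit, with bars of 1 SE. Filled points were called at an adjusted p under 0.05 and open points were not. A left-pointing triangle marks the bound for a group with no reads, Ttr in the extracranial tumors and Kl in the grafts. The SHH points straddle 0, the points of the other groups lie left of it except for Aqp1.

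In the grafts 6 of 9 members fell relative to healthy brain and 1 rose, against 30.4% of all genes tested called lower and 24.9% called higher. Ttr (log2 fold change -12.87 ± 3.57), Folr1 (-5.63 ± 1.81), Clic6 (-5.66 ± 1.73), Kcne2 (-5.75 ± 1.38) and Prlr (-6.33 ± 1.27) were called lower by edgeR, and Kl, with no reads in any graft, was at least 125.5-fold lower. Their edgeR adjusted p-values were 0.000909 to 0.0171. Aqp1 averaged 152 ± 19.9 CPM in the grafts and 13.4 ± 13.3 CPM in the brains (SD, n = 3 each), a log2 fold change of 3.50 ± 1.43. Its edgeR adjusted p of 0.04998 lay just under the threshold, and the call was lost with RLE size factors, with no filter on low counts, with a minimum count of 50 and without any single graft, Healthy brain 2 or Healthy brain 3. Its 3 graft values nevertheless lay above all 3 brain values.

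Foxj1 (-1.34 ± 1.07) and Enpp2 (-2.02 ± 1.07) were not called in the grafts by this fit. With limma voom both were called lower (Foxj1 -3.18, adjusted p 0.000383, and Enpp2 -1.91, 0.00688), as was Enpp2 with the compared groups only (-2.01, 0.000624). Without Syngeneic graft 3 the log2 fold change of Foxj1 was -3.92 and passed the test, with an edgeR adjusted p of 0.0105. With limma voom and quality weights, Ttr was not called against brain in the Myc tumors (adjusted p 0.336), the extracranial tumors (0.233) or the grafts (0.0763). In the edgeR fit of the grafts, Ttr, Kl, Kcne2 and Prlr were called whichever library was left out. Folr1 was lost without Syngeneic graft 2 or 3, and Clic6 without Syngeneic graft 3. The median over the 9 members was -5.66 in the grafts and -3.44 in the extracranial tumors, against -0.16 and 0.05 over all genes tested, and neither median changed with the genes without reads set to their bounds. Neuron and astrocyte genes were lower as well. In the grafts 7 of 9 neuron genes were called lower, with a median of -8.50, and 7 of 8 astrocyte genes, with a median of -4.96. In the extracranial tumors 7 of 9 neuron genes (median -3.71) and 5 of 8 astrocyte genes (median -3.73) were called lower. Other lists differed. Of 10 oligodendrocyte genes, 4 were called lower in the grafts and 0 in the extracranial tumors. Their medians were -3.21 and -1.33 with genes without reads set to their bounds. Of 10 endothelium genes, 3 were called higher in the grafts and 0 lower, and 1 higher and 1 lower in the extracranial tumors. The neuron genes summed to 146.6 to 212 CPM in the grafts and 61.7 to 448 CPM in the extracranial tumors, and the astrocyte genes to 67.7 to 85.6 CPM in the grafts and 99.0 to 412 CPM in the extracranial tumors, against the brain levels given for the Myc comparison. At most 2 neuron genes and 1 astrocyte gene were at 0 in any of these libraries. The fall of the members is thus not shown to be particular to them. The 4 comparisons with brain share the same 3 brain libraries.

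Myc and SHH tumors were also set against each other. With all libraries, 8 of 9 members were lower in the Myc tumors, all but Aqp1, against 21.9% of all genes tested, but without SHH CNS tumor 1 only Enpp2 was called. Of other brain cell genes, 8 of 10 oligodendrocyte genes (median log2 fold change -4.68), 4 of 9 neuron genes (-3.81) and 3 of 8 astrocyte genes (-2.49) were also called lower, beside a median of -3.76 over the members. The oligodendrocyte genes summed to 114.6 to 252 CPM in the Myc tumors, against 88.2 and 219 CPM in SHH CNS tumors 2 and 3. The summed astrocyte levels of both these SHH tumors, and the summed neuron level of SHH CNS tumor 3, also lay within the range of the Myc tumors. The astrocyte range reached them only through Myc CNS tumor 4, at 1037 CPM, with the other Myc tumors at 41.1 to 347 CPM. By mean log2(CPM + 1) the neuron genes were at 6.78 and 5.26 in SHH CNS tumors 2 and 3, above the 1.87 to 4.07 of the Myc tumors. The part of these cells in the members' differences, that of Enpp2 included, was not tested. Without Myc CNS tumor 1 or 2 there were 5 calls and without Myc CNS tumor 3 there were 4. Enpp2 averaged 8.62 ± 5.41 CPM in the Myc tumors (n = 4) and 354 ± 428 CPM in the SHH tumors (SD, n = 3), a log2 fold change of -5.35 ± 1.09 with an edgeR adjusted p of 0.00186, and the highest Myc tumor, at 13.8 CPM, lay below the lowest SHH tumor, at 29.8 CPM. With single libraries left out the log2 fold change of Enpp2 ranged from -5.89 to -3.68. Ttr had a log2 fold change of -11.61 ± 2.96 with SHH CNS tumor 1 and -2.47 without it, Kl of -6.34 ± 1.67 and -3.17, and Foxj1 of -2.72 ± 1.01 and -1.62. The libraries of the groups did not overlap for Ttr, Kl and Enpp2, while those of Folr1, Clic6, Kcne2, Prlr and Foxj1 did. The share of all genes tested without overlap was not computed, so this only describes these genes.

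No member was called between extracranial and Myc tumors. The edgeR fit called 0 of 9, with adjusted p-values of 0.422 to 0.963 and 0 of 9 at an unadjusted p under 0.05, in a comparison where 0.0186% of all genes tested were called. DESeq2 called 1 member, Ttr, which had 33 reads over the Myc tumors and none over the extracranial tumors. Between grafts and extracranial tumors edgeR again called 0 of 9, against 4.78% of all genes tested, and 3 of 9 had an unadjusted p under 0.05. Foxj1 had a log2 fold change of 3.11 ± 1.03 at an edgeR adjusted p of 0.0835, with Syngeneic graft 3 at 19.9 CPM and the other grafts at 0.731 and 1.77 CPM. Aqp1 had one of 1.66 ± 1.21 at an edgeR adjusted p of 0.425, with all 3 grafts above all 4 extracranial tumors. DESeq2 called 2 members higher in the grafts, Ttr and Foxj1, with Ttr at 9 reads over the grafts and none over the extracranial tumors. In both comparisons DESeq2 also called many more of all genes tested than edgeR did. Those counts are given with the dependence on processing, and the DESeq2 calls of members are not shown to exceed them. Ttr, Folr1, Kl and Kcne2 had at most 78 reads in the sum of any of these 3 groups, so small differences of theirs were not detectable at this depth.

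The 30 other choroid plexus genes moved in both directions. In the SHH tumors 1 of 30 fell relative to healthy brain, Slc29a4, at an edgeR adjusted p of 0.0493 that was lost with RLE size factors, with no filter, with the replicate block, with the compared groups only and without any single library of these groups but SHH CNS tumor 2. In the Myc tumors 10 fell and 5 rose relative to healthy brain, with a median of -1.57. In the extracranial tumors 11 fell and 3 rose, with a median of -2.09. There 8 or 9 were called without Extracranial tumor 4 or Healthy brain 1 or 2. In the grafts 14 fell and 4 rose, with a median of -3.54, and 7 fell without Syngeneic graft 2. Of all genes tested, 26.8% were called lower in the Myc tumors, 26.1% in the extracranial tumors and 30.4% in the grafts. The 10 and 11 of 30 that fell in the Myc and extracranial tumors were not far above these shares. The shares called higher were 25.3%, 26.1% and 24.9%. Otx2 fell in all 3 groups, to 0.0314 ± 0.0241 CPM in the Myc tumors (n = 4), 0.215 ± 0.375 CPM in the extracranial tumors (n = 4) and 0.0833 ± 0.135 CPM in the grafts (n = 3), against 33.9 ± 25.3 CPM in the brains (SD, n = 3). Slc29a4, a monoamine transporter, was the gene of this list with the smallest edgeR adjusted p in each of these comparisons, at 0.256 to 0.681 CPM on average in the 3 tumor groups, against 96.2 CPM in the brains. The bicarbonate transporter gene Slc4a10 fell to 0.201 ± 0.257 CPM in the extracranial tumors and 0.0417 ± 0.0136 CPM in the grafts, against 98.0 ± 8.63 CPM in the brains. Slc4a10 and Slc29a4 (96.2 ± 8.25 CPM) varied little among the brains, unlike Ttr at 353 ± 354 CPM (SD, n = 3). Neuron genes were also called lower, 4 of 9 in the Myc tumors and 7 of 9 in both the extracranial tumors and the grafts. The part of neurons in the levels of Slc29a4 and Slc4a10 was not tested.

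A few genes of that list rose. Steap1, a metalloreductase, averaged 12.2 ± 4.64 CPM in the Myc tumors (n = 4) and 15.9 ± 9.33 CPM in the grafts (n = 3), against 0.545 ± 0.484 CPM in the brains (SD, n = 3). Col8a1, a short-chain collagen, averaged 356 ± 238 CPM in the Myc tumors, against 16.8 ± 11.3 CPM in the brains. In the same Myc tumors 10 meninges and fibroblast genes summed to 2727 to 10200 CPM, against 387 to 2414 CPM in the brains, and their part in Col8a1 was not tested. Slc4a5, an electrogenic bicarbonate transporter of the choroid plexus, was at 217, 228 and 79.5 CPM in the 3 grafts and at 0.146, 0, 0.269 and 0 CPM in the extracranial tumors, a log2 fold change of 10.79 ± 2.0 with an edgeR adjusted p of 0.0182. It was at 0.0547 to 8.77 CPM in the Myc tumors, 0.396 to 11.9 CPM in the SHH tumors and 1.04 to 6.62 CPM in the brains, so the grafts alone were high, and its call was lost without Syngeneic graft 1 or 2.

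**Figure D4:**
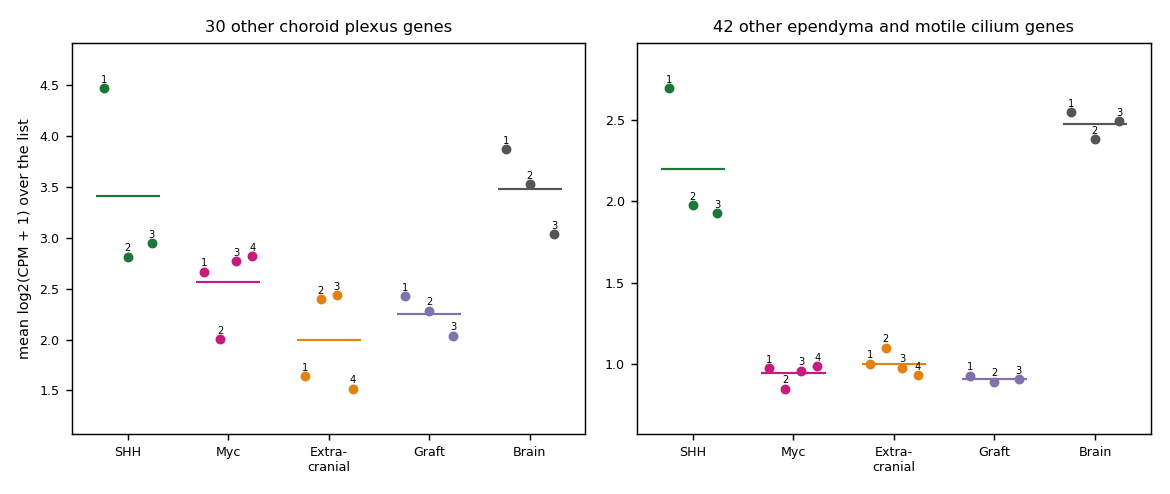
Mean log2(CPM + 1) over the 30 other choroid plexus genes (left) and the 42 other ependyma and motile cilium genes (right), with 1 numbered point per library and a line at the group mean. The ependyma genes lie between 0.85 and 1.10 in every Myc, extracranial and graft library and between 1.93 and 2.70 in every SHH and brain library, whereas the choroid plexus genes form no such gap.

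The other ependyma and motile cilium genes fell together. Of the 42, 41 were tested, and 29 fell in the Myc tumors, 27 in the extracranial tumors and 29 in the grafts relative to healthy brain, with 1 higher in each and medians of -3.81, -3.07 and -3.51. Over all genes tested, 26.8%, 26.1% and 30.4% were called lower in these comparisons. In the SHH tumors 1 fell and 1 rose, with a median of -0.27, and between 0 and 4 were called with single libraries left out. Their mean log2(CPM + 1) was between 1.93 and 2.70 in the SHH tumors, between 0.85 and 0.99 in the Myc tumors, between 0.93 and 1.10 in the extracranial tumors and between 0.89 and 0.93 in the grafts, against 2.38 to 2.55 in the brains, with no Myc, extracranial or graft library reaching an SHH or brain library. SHH CNS tumors 2 and 3, with 1.2 and 0.804 CPM of Ttr, had a cilium mean of 1.98 and 1.93, whereas the Myc tumors, with 0 to 0.601 CPM of Ttr, had at most 0.99.

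Both regulators and parts of the axoneme were among the genes that fell. Rfx3, which drives cilium genes, averaged 8.73 ± 3.50 CPM in the Myc tumors and 7.01 ± 0.580 CPM in the grafts, against 96.3 ± 11.5 CPM in the brains. Spag6l, of the central apparatus of the cilium, averaged 0.0878 ± 0.0886 CPM in the Myc tumors and 0.00746 ± 0.0149 CPM in the extracranial tumors, against 8.61 ± 1.23 CPM in the brains. Dnah5, a heavy chain of the outer dynein arm, averaged 0.0172 ± 0.0202 CPM in the extracranial tumors and 0.0380 ± 0.0177 CPM in the grafts, against 3.72 ± 1.23 CPM in the brains (SD, n = 4 Myc, 4 extracranial, 3 graft and 3 brain libraries). In the SHH tumors Mcidas, which starts the multiciliated program, fell to 1 read over the 3 tumors, against 0.820 ± 0.336 CPM in the brains (SD, n = 3, edgeR adjusted p 0.0162). Rfx2 rose in them to 19.2 ± 4.35 CPM, against 4.93 ± 1.36 CPM in the brains (SD, n = 3 each, edgeR adjusted p 0.0404). Both calls were lost without SHH CNS tumor 2 or 3 or Healthy brain 2 or 3, and that of Rfx2 also without Healthy brain 1. Rfx2 was not called with no filter or with the replicate block either. Mcidas was not called with a minimum count of 50.

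Between Myc and SHH tumors 28 of the 41 cilium genes were lower in the Myc tumors and 3 higher, with a median of -3.36. Over all genes tested, 21.9% were called lower in this comparison and 19.0% higher. Of the 30 other choroid plexus genes 10 were lower and 2 higher, with 3 lower and 2 higher without SHH CNS tumor 1. Otx2 had a log2 fold change of -11.87 ± 1.60 with an edgeR adjusted p of 0.000141, and Spag6l, at 0.0878 ± 0.0886 CPM in the Myc tumors (n = 4) and 7.14 ± 1.02 CPM in the SHH tumors (SD, n = 3), one of -6.14 ± 0.90 with 0.000232. Foxj1, the member of the cilium program, was called lower with it but overlapped, since Myc CNS tumor 4 had 4.90 CPM and SHH CNS tumor 3 had 4.38 CPM.

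Across the 17 libraries the members fell into a tight set and a loose one. Pearson's r of log2(CPM + 1) was 0.976 between Ttr and Folr1, 0.955 between Ttr and Clic6 and 0.927 between Ttr and Kcne2. Every pair with Aqp1 was negative, from -0.06 with Ttr to -0.39 with Prlr. These values share libraries, depth and group structure. Ttr was at 1679, 709 and 348 CPM in SHH CNS tumor 1 and Healthy brains 1 and 2, and at most 1.2 CPM in every other library. The correlations, and the nearest genes given next, were not computed without these libraries. The genes most like each member, by the same measure over the same 17 libraries, were Wnt8b, Prr32 and Folr1 for Ttr, Muc15, Oca2 and Ttr for Folr1, Ttr, Folr1 and Tmem72 for Clic6, and Wnt8b, Ttr and Chrna6 for Kcne2, with r between 0.925 and 0.979. Kl was nearest to Sptssb, Clec18a and Epn3 (0.968 to 0.976), Prlr to B3galt5, Zmat4 and Kcns2 (0.973 to 0.983), Enpp2 to Sirt3, Flywch1 and Tppp (0.902 to 0.910), Foxj1 to Rab26, Aak1 and Rnf152 (0.890 to 0.915) and Aqp1 to Agmo, Gm17025 and Fcgrt (0.862 to 0.872).

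Per kilobase of exon, the order of the members differed between libraries of the same group, and several group means rest on 1 library. Ttr had the highest mean in the SHH tumors, at 472 CPM per kilobase, and in the brains, at 297. The SHH mean came from SHH CNS tumor 1, at 1416, while in SHH CNS tumors 2 and 3 Ttr was at 1.01 and 0.678, below Enpp2 (33.2 and 5.15) and Foxj1 (4.62 and 1.67). In Healthy brain 3 it was at 0.791, below Foxj1 at 7.91 and Enpp2 at 7.84. Enpp2 had the second mean in both groups, at 61.2 CPM per kilobase in the SHH tumors and 9.67 in the brains. Kl was the lowest member in each of the 3 brains, with a mean of 0.217 CPM per kilobase. Its SHH mean of 1.80 also came from SHH CNS tumor 1, at 4.995, and it was at 0.222 and 0.175 in SHH CNS tumors 2 and 3. Aqp1 had the highest mean in the Myc tumors, at 8.30 CPM per kilobase, through Myc CNS tumor 1 at 28.7, and in Myc CNS tumors 3 and 4 it was at 1.16 and 1.39, below Enpp2 at 1.86 and 2.39. In the extracranial tumors Aqp1 had a mean of 18.3 and was the highest member in all but Extracranial tumor 4, where it was at 5.69 and Enpp2 at 7.13. The means of Enpp2 were 1.49 in the Myc tumors and 2.61 in the extracranial tumors. The libraries of neighbours in the order overlapped throughout in the SHH and Myc tumors. They did not overlap between Prlr and Kl in the brains, between Enpp2 and Foxj1 in the extracranial tumors or between Aqp1 and Foxj1 in the grafts, where the lowest Aqp1 library was above the highest library of every other member. Prlr and Ttr in the extracranial tumors, and Enpp2 and Clic6, Ttr and Prlr, and Prlr and Kl in the grafts were neighbours that did not overlap either. Of these genes all but Enpp2, with 2781 reads over the grafts, had few or no reads there.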

How the data were processed

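Per the labels' protocols, RNA was purified on miRNeasy columns with a DNase step, and libraries were prepared with TruSeq Stranded mRNA reagents. Reads were aligned with STAR 2.5.3a to mm10, per the submitters' processing notes. The authors deposited raw counts of reads per gene, 1 table per library, without normalization. How reads were counted, by strand or not, and what was done with reads matching several genes are not given in the sources used here. Of 50600 gene IDs, 50376 matched GENCODE M21 (GRCm38, the build of mm10) without their version, which gave symbols, positions and exon lengths. Start regions came from RefSeq (GRCm38.p6).

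All 17 libraries entered 1 edgeR 4.0.16 quasi-likelihood fit (R 4.3.3, robust, TMM factors, a mean per group). The filterByExpr defaults, with a minimum count of 10, kept 21494 genes with 99.96% of the counts. Calls were made at 0.05 on p-values adjusted by Benjamini-Hochberg over all genes tested. SEs are the absolute log2 fold change over the square root of F. A group without reads was set to 3 counts over its summed library size, which covers counting error only. Replicate libraries differed far beyond sampling noise (chi-square per gene at least 65.3), so none was taken for a copy. The design names separate tumors and biological replicates of brain, but whether tumors shared an animal is not stated, and p-values measure the spread between these samples.

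The alternatives were RLE size factors, no filter, a minimum count of 50, a replicate block, the compared groups only, DESeq2 1.42.0, limma 3.58.1 voom with quality weights, Healthy brain 1 and SHH CNS tumor 1 left out together, and each library left out in turn. The edgeR step was tested on simulated counts. The members and gene lists were chosen with earlier results of these data known. Genes named beside the members were, per list and comparison, up to 6 called genes with the smallest adjusted p, the 3 genes most like each member and the highest genes of marker lists. Python 3.11.15 was used for summaries and plots.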

Additional observations from a re-analysis of the deposited data

Results flagged for a closer look

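Among 17 sets of 4 libraries examined for a single distant value, 3 held one. The rule allows about 1 in 20 by chance if values are normal and sets independent. CPM values need not be normal and the sets share libraries, so the 3 cannot be read as more than chance. Aqp1 was at 75.3 CPM in Myc CNS tumor 1, against 3.05 to 5.16 CPM in the other Myc tumors. Kl was at 1.01 CPM in Extracranial tumor 3, against 0.0340 to 0.0976 CPM in the other extracranial tumors. Enpp2 was at 41.2 CPM in Extracranial tumor 4, against 3.37 to 8.59 CPM in the others. Groups of 3 libraries were not examined in this way.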

How the results depend on the processing

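Counts of members called with RLE size factors and with a minimum count of 50 stayed within 1.5 times the reported counts in all 7 comparisons. For SHH tumors over brain, limma voom with quality weights called 2 members in place of 0, and 7559 of all genes tested in place of 940. For Myc over SHH tumors the 8 calls became 5 with no filter, 3 with the compared groups only, 4 with limma voom and 1 with Healthy brain 1 and SHH CNS tumor 1 left out together. DESeq2 called 1 member for extracranial over Myc tumors and 2 for grafts over extracranial tumors, in place of 0 each. It also called more of all genes in both, as given below. With single libraries left out, the count ranged from 3 to 6 for Myc tumors over brain, from 4 to 6 for extracranial tumors over brain, from 5 to 7 for grafts over brain and from 1 to 8 for Myc over SHH tumors, and stayed at 0 in the other 3 comparisons. Under limma voom the calls of Ttr against brain were lost in the Myc tumors (-5.23), extracranial tumors (-8.77) and grafts (-7.39).

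Signs turned mostly in SHH tumors over brain, where no member was called. The log2 fold change of Folr1 was -0.01 with no filter. With Healthy brain 1 and SHH CNS tumor 1 left out together it was -7.45 for Ttr, -3.58 for Folr1, -0.33 for Kl and -2.85 for Clic6, and under limma voom -1.37 for Ttr, -2.91 for Folr1 and -1.10 for Clic6. With single libraries left out it ranged from -8.47 to 1.68 for Ttr, -4.40 to 0.86 for Folr1, -0.14 to 3.58 for Kl, -3.53 to 0.79 for Clic6, -3.17 to 0.37 for Aqp1, -1.23 to 0.46 for Prlr and -1.21 to 0.36 for Foxj1. Aqp1 ranged from -1.75 to 1.82 in Myc tumors over brain and from -1.02 to 3.86 in Myc over SHH tumors, turning without Myc CNS tumor 1. Apart from the libraries left out, the cause of these shifts was not tested.

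The replicate numbers did not pair the libraries: 31 same-numbered pairs had a median correlation of deviations of 0.009 (-0.18 to 0.14), against -0.004 for 84 other pairs. With the replicate block, 2 members (Kl and Enpp2) were called for Myc over SHH tumors in place of 8, and counts in the other comparisons stayed within 1.5 times. In SHH tumors over brain the block turned Ttr to -1.44, Folr1 to -1.11, Clic6 to -0.11 and Foxj1 to 0.14.

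Over all genes, SHH tumors over brain gave 940 calls, against 585 with no filter, 474 with both libraries left out, 2875 by DESeq2, 7559 by limma voom and 62 to 821 with single libraries left out. Extracranial over Myc tumors gave 4, against 10 with RLE factors, 1249 by DESeq2, 0 by limma voom, with the replicate block or with the compared groups only, and 0 to 94 with single libraries left out. Grafts over extracranial tumors gave 1028, against 514 with no filter, 604 with both libraries left out, 430 with the block, 110 with the compared groups only, 2895 by limma voom, 3733 by DESeq2 and 56 to 1970 with single libraries left out. Of the other choroid plexus genes, 12 were called for Myc over SHH tumors, against 7 with the block or the compared groups only and 5 with both libraries left out. For SHH tumors over brain limma voom called 13 of them and 20 ependyma genes, in place of 1 and 2. For grafts over extracranial tumors DESeq2 called 9 and 7, in place of 2 and 1. Low reads of Ttr, Folr1, Kl and Kcne2 in the Myc, extracranial and graft libraries limit what can be said of differences among those groups.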

Other observations

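Syngeneic graft 3, the graft with Foxj1 at the level of the brains, also differed from the other grafts in Foxa1, another forkhead gene, which was on the list of airway epithelium genes. Foxa1 was at 15.4 CPM in Syngeneic graft 3 and at 0.0844 and 0.221 CPM in Syngeneic grafts 1 and 2. It was at 14.2 to 41.8 CPM in the SHH tumors, against 1.11 to 9.17 CPM in the healthy brains. The other 6 airway genes were at 0 in that graft. This gene was noticed after its values were seen, and the pattern rests on 1 library.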
